A study of Mus musculus with 2 samples.

Results

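The cells described here are the collagen-rich cells of healing mouse skin with the highest combined level of 7 secreted-protein genes, Cxcl14, C7, Cilp, Apod, Angptl1, Eln and Mgp. They numbered 567 of 2834 cells that passed a fibroblast gate and of 8871 cells kept in all. A cell passed the gate when Col1a1, Col1a2 and Col3a1 together made up at least 1% of its unique molecular identifiers (UMIs, one per captured transcript) and the myeloid genes Lyz2, Tyrobp and Fcer1g under 0.1%. Each gated cell was scored by the mean of ln(1 + UMIs per 10000) over the 7 genes, and the top 20% of both libraries together were taken as members. The other 2267 gated cells are the set they are compared with. Members were thus selected on the levels of the 7 genes, and the contrast of these cells with the other gated cells, for every gene, is a description.

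The study profiled total wound cells from wild-type male C57BL/6 mice, an inbred laboratory strain, by droplet-based 3' single-cell RNA sequencing. There was 1 library from aged mice of 24 months and 1 from young mice of 2 months, both taken at day 6 after a full-thickness wound of 10 mm on the back, and in both cases cells of multiple mice were pooled into the library. No library was unwounded or from another day. The aged library gave 226 members among 1362 gated and 4210 kept cells, and the young library 341 among 1472 gated and 4661 kept cells. The deposited libraries held 107865898 UMIs in 4379 aged barcodes and 111810068 UMIs in 4932 young ones. With 1 library per age there is no replicate and no test, every interval is a 95% interval for counting error alone, and a difference with age cannot be told apart from a difference between the pooled animals or the preparations. The libraries shared 3 barcodes, and 0 members carried one of them.

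The 7 genes all encode secreted proteins. Cxcl14 is a chemokine that healthy skin makes constitutively, and C7 is a component of the membrane attack complex with which complement ends. Apod is a small lipid-binding apolipoprotein of the lipocalin family. Cilp, cartilage intermediate layer protein, is a matrix protein that binds transforming growth factor beta, and Angptl1 is a secreted relative of the angiopoietins. Eln encodes tropoelastin, the monomer of elastin, which is laid on microfibrils of fibrillin and cross-linked by lysyl oxidases into elastic fibres. Mgp, matrix Gla protein, keeps soft tissue from calcifying. Dermal fibroblasts build the collagen and elastic matrix of skin, and in a wound they also make provisional matrix, recruit leukocytes and can take on a contractile state.

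For 5 of the 7 score genes, the RefSeq promoter window of 250 bases before and 50 after the annotated start was at hand (build GRCm38.p6), and these are shown because the genes were chosen for being high in the same cells. Capitals mark the GC box GGGCGG, the TATA box TATAAA and the E-box CAGCTG on either strand.
Cxcl14 (chr13:56296502-56296801, minus strand): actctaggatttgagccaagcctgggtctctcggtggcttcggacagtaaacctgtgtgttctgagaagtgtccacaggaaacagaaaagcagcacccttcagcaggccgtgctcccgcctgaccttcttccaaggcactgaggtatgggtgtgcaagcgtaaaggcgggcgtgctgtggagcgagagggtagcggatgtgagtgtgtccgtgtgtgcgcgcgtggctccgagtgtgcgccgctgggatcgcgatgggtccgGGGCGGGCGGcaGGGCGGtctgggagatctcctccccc
C7 (chr15:5063724-5064023, minus strand): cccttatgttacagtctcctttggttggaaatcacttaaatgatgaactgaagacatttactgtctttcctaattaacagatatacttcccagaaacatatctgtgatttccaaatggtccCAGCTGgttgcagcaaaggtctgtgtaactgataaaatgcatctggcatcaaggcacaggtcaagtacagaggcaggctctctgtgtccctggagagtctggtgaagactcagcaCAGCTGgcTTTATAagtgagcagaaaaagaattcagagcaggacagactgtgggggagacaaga
Apod (chr16:31314759-31315058, minus strand): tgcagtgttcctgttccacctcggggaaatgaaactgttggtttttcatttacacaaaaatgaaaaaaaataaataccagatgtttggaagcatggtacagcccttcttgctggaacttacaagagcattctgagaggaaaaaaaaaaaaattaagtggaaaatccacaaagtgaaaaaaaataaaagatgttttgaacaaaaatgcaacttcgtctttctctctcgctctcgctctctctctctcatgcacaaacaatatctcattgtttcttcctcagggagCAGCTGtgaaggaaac
Cilp (chr9:65264930-65265229, plus strand): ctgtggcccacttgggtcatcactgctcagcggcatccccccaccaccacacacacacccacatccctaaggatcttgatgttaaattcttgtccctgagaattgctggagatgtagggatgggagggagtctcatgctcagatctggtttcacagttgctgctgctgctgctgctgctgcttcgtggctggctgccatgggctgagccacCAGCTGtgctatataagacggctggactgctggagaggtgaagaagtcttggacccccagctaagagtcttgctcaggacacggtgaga
Angptl1 (chr1:156838773-156839072, plus strand): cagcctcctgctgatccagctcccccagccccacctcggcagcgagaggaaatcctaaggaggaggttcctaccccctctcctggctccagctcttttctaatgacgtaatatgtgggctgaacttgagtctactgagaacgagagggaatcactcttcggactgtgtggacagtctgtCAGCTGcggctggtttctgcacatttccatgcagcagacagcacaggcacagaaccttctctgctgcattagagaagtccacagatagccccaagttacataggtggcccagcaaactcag

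Of these 5 windows, C7, Apod, Cilp and Angptl1 held a CAGCTG, which 16.3% of the 32851 promoter windows of that length hold, and C7 held 2. Cxcl14 held none of these but 3 copies of GGGCGG, of which 2 overlap, against 35.7% of all windows with at least 1. It was also the window richest in G and C, at 62.7%, against 37.3% for Apod and a median of 52.7% over all windows. The exact run TATAAA was in C7 alone, as TTTATA on the printed strand, against 13.6% of all windows. Variants of it, such as the tatataag in the Cilp window, were not searched for. The AP-1 motif TGANTCA, the E-box CACGTG and the TEAD motif CATTCC, which 7.81%, 7.15% and 14.7% of all windows hold, had no match in any of the 5. Both strands were searched for all 6 motifs. A match is a run of letters and not a shown site.

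The score had no gap at the threshold. The lowest member scored 0.989 and the highest cell outside 0.988, against a median of 0.383 over gated cells and a top score of 3.05. The last 50 cells inside had median levels of 6.00 UMIs per 10000 for Apod, 2.00 for Angptl1 and 1.36 for Cilp, and the first 50 outside had 7.77, 2.47 and 0.931. Cxcl14 stood at 0.206 in the 50 inside and 0.486 in the 50 outside, and C7 at 0 in both. The cells on both sides of the threshold were alike, and the members are the upper end of a range.

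Members had the 7 genes at 4.48 to 31.0 times the level of other gated cells. Levels are given as CPM, the UMIs of a gene summed over the cells of a group in a library and scaled to the same total of UMIs in each. Cxcl14 had 1195 CPM in aged and 749 CPM in young members, against 64.3 CPM in aged and 58.9 CPM in young other cells. C7 had 144 and 121 CPM in aged and young members, against 5.90 and 5.27 CPM in aged and young other cells. Both genes were many times higher in members of either library, and the aged members were the highest.

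Apod had 2019 CPM in aged and 1509.8 CPM in young members, against 384 and 265 CPM in aged and young other cells. Cilp had 758 and 716 CPM in aged and young members, against 24.5 and 30.5 CPM in aged and young other cells. Its ratio was 31.0 (29.3 to 32.7) in the aged and 23.5 (22.3 to 24.7) in the young library. Apod had the narrowest ratio in the aged library, at 5.26, and Angptl1 in the young one, at 4.48.

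Angptl1 had 369.8 CPM in aged and 386 CPM in young members, against 58.8 and 86.2 CPM in aged and young other cells. Eln had 526 and 924 CPM in aged and young members, against 33.8 and 40.1 CPM in aged and young other cells. Mgp had 781 and 899 CPM in aged and young members, against 43.9 and 70.5 CPM in aged and young other cells. For each of the 7 genes both libraries' members lay above both libraries' other cells.

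**Figure D1:**
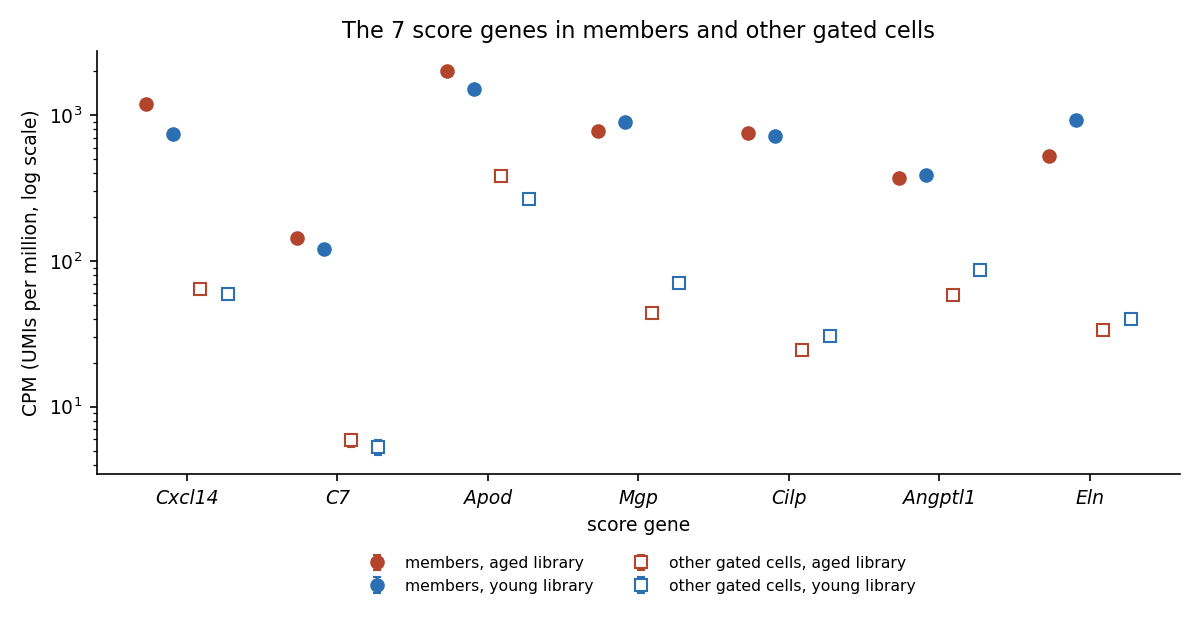
Level of each score gene (CPM, log scale) in members (filled circles) and other gated cells (open squares) of the aged and young libraries; each point is 1 library's sum and bars are exact 95% Poisson intervals, mostly smaller than the points. Every filled point lies above the open points of its gene, from C7 at 144 and 121 CPM against 5.90 and 5.27 CPM to Apod at 2019 and 1509.8 CPM against 384 and 265 CPM.

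Each score gene was also looked at where it had no part in the choice of cells. The score genes had themselves been chosen for being high in the same cells. A higher level of the left-out gene was therefore likely beforehand, and the ratios are a description, not a test. With members rebuilt from the other 6 genes, 90.3% to 95.8% of them were original members. The gene left out was still higher in such members than in the other gated cells in both libraries. The ratio was 19.4 in the aged and 8.46 in the young library for Cilp, 18.8 and 10.5 for C7, 12.02 and 6.28 for Mgp, and 10.02 and 13.4 for Eln. For Cxcl14 it was 8.79 and 3.26, and for Apod and Angptl1 it lay between 3.43 and 4.40. The left-out gene thus stood highest for C7 and Cilp in the aged and for Eln in the young library, and lowest for Cxcl14 in the young one.

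Depth was lower in members. Their median was 41454 UMIs in the aged and 38611 in the young library, against 53168.5 and 43804 in aged and young other gated cells, and the score had a weak negative correlation with log UMIs over gated cells (r = -0.11 aged and -0.08 young). For shares of cells with a UMI, every cell was therefore thinned to 5000 UMIs, and 5 aged and 4 young members below that depth dropped out, as did 27 aged and 35 young other gated cells. A Cxcl14 UMI was then found in 71.9% of aged and 54.3% of young members (86.3% and 79.8% unthinned), against 11.7% of aged and 13.2% of young other cells (28.4% and 30.5% unthinned). As a level for free RNA, barcodes rich in myeloid transcripts and poor in collagen, with medians of 14028 UMIs in the aged and 17165 in the young library, had a Cxcl14 UMI in 4.49% and 2.00%. For C7 the thinned shares were 30.8% and 27.3% in aged and young members and 3.61% and 2.37% in aged and young other cells, against 0 of 312 aged and 0 of 350 young myeloid barcodes, which allows up to 1.18% and 1.05%. Members held a median of 5 (aged) and 4 (young) of the 7 genes after thinning, and other gated cells a median of 1 in both libraries. Every one of the 7 was present in 2.71% of the aged members and 2.97% of the young ones, against 0 other gated cells.

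The gate chose these cells on collagens, so the label of fibroblast rests partly on the gate. The 7 fibroblast markers, which include Pdgfra, Dcn and Lum, summed to 15737 CPM in aged and 16324 CPM in young members, against 12669 and 14904 CPM in aged and young other gated cells, and none was at 0. Endothelial markers summed to 12.6 and 12.9 CPM in aged and young members, macrophage markers to 13.1 and 8.91 CPM, T and NK cell markers to 0.898 and 5.50 CPM and keratinocyte markers to 8.38 and 11.9 CPM. Of the 5 adipocyte markers all were at 0 in aged members, and the list summed to 0.724 CPM in young ones. Neutrophil markers, S100a9 foremost, stood at 72.0 and 107 CPM in aged and young members, against 41.2 and 212 CPM in aged and young other cells and 2555 and 8903 CPM over all kept cells. Among the lists that summed higher in members than in other cells of both libraries were pericyte and tendon and cartilage markers, given below, and Schwann and melanocyte markers. Schwann markers had 6.68 and 3.91 CPM in aged and young members, against 1.73 and 1.12 CPM in aged and young other cells. Most of the melanocyte sum in members came from Mlana, and Kit of that list was lower in members of both libraries.

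The word elastic in the label rests on Eln, which the score used, so its level in members says nothing of that label. Outside Eln, 21 genes of elastic fibres were counted, and 4 were at least 1.5 times higher in members of both libraries and 1 lower, where 3.48% of all 11941 genes were higher and 3.07% lower. Here and below, counts past a fold and log2 values are taken with 5 CPM added to both sides, and a fold itself is the plain CPM ratio. The list's median log2 ratio was -0.09 in the aged and 0.18 in the young library, where all genes had medians of -0.08 and -0.02. Mfap4, a microfibril-associated protein, had 543 and 809 CPM in aged and young members, against 184 and 261 CPM in aged and young other cells. Ltbp4, a latent TGF-beta binding protein needed for elastic fibre assembly, had 53.4 and 42.9 CPM in aged and young members, against 5.36 and 5.68 CPM in aged and young other cells. Ltbp3 and Fbln1, a relative of Ltbp4 and a fibulin, were 1.64 to 2.02 times higher.

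The scaffold gene Fbn1 and the cross-linking gene Lox were within 1.5-fold of the other cells in both libraries. Fbn1, the main fibrillin, had 1965 and 1592 CPM in aged and young members, against 1791 and 1285 CPM in aged and young other cells. Lox, a lysyl oxidase, had 882 and 917 CPM in aged and young members, against 1235 and 881 CPM in aged and young other cells. Loxl2, also a lysyl oxidase, was the gene of the list that was lower in members, with 421 and 372 CPM in aged and young members, against 840.00 and 675 CPM in aged and young other cells.

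Over all genes, 122 of 11941 were at least 2-fold higher in members of both libraries (1.02%), the 7 score genes among them, and 108 were lower (0.904%). Thbs4, a thrombospondin of tendon and of injured tissue, had 810.1 and 302 CPM in aged and young members, against 48.5 and 28.5 CPM in aged and young other cells. Myoc, myocilin, best known from the outflow tissue of the eye, had 96.1 and 22.6 CPM in aged and young members, against 1.22 and 1.18 CPM in aged and young other cells, and 10 cells held 65.0% of its aged and 58.0% of its young member UMIs. For Thbs4 the 10 richest cells held 47.0% in the aged and 45.3% in the young library, and a Thbs4 UMI was present after thinning in 35.7% of aged and 21.1% of young members (52.2% and 27.9% unthinned), against 7.84% of aged and 4.56% of young other cells (18.2% and 10.5% unthinned) and 0 and 0.571% of aged and young myeloid barcodes.

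Gas6, a ligand of the TAM receptor kinases, had 576 and 811 CPM in aged and young members, against 42.1 and 129 CPM in aged and young other cells. Igf1, insulin-like growth factor 1, had 631 and 627 CPM in aged and young members, against 146 and 167 CPM in aged and young other cells. Both were spread over more cells, the 10 richest members holding 12.2% to 19.8% of the UMIs of either gene. Cpxm2, a carboxypeptidase-like protein, was 13.0 and 10.1 times higher in members of the aged and young library, Fbln7, a fibulin, 16.9 and 6.54 times, and Sparcl1, a relative of the matricellular protein SPARC, 8.29 and 5.70 times. Itgbl1, an integrin beta-like protein, Podn, a leucine-rich proteoglycan, and Gfra1, a co-receptor for GDNF, were 4.28 to 9.60 times higher. For Gfra1, 10 cells held 49.3% of the aged and 37.7% of the young member UMIs.

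Membrane proteins and hormones were also among the 20 highest. Fxyd6, a modulator of the sodium pump, was 18.0 and 7.62 times higher in members of the aged and young library, Csmd1, a large complement-regulating membrane protein, 12.9 and 6.25 times, and Deptor, an inhibitor of mTOR, 6.995 and 5.24 times. For Csmd1, 10 cells held 65.4% of the aged and 33.9% of the young member UMIs. Fgf23, known as a phosphate hormone of bone, had 22.1 and 38.9 CPM in aged and young members, against 0.476 and 5.70 CPM in aged and young other cells, but 10 cells held 85.6% of its aged and 54.4% of its young member UMIs. Comp, an oligomeric matrix protein of cartilage and tendon, had 14.9 and 32.9 CPM in aged and young members, against 0.254 and 1.38 CPM in aged and young other cells, and 10 cells held 68.5% and 43.5% of its aged and young member UMIs. C1qtnf3, Apoe, Col8a1 and Col15a1 complete the 20 and are described with their groups.

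Comp and Thbs4 are also made by tendon cells, so tendon and cartilage markers were read beside them. The 6 markers, Comp itself among them, summed to 82.6 and 80.1 CPM in aged and young members, against 11.9 and 26.98 CPM in aged and young other cells. Comp gave 14.9 and 32.9 CPM of the sums in aged and young members. Of the 3 markers with enough UMIs to count, 2 were higher, and Comp was among these, so the list is in part the gene it was read beside. Tnmd, tenomodulin, made up most of the sums in members, with 60.9 and 40.2 CPM in aged and young members, while the tendon transcription factor Scx stood at 0.598 and 0.652 CPM and the cartilage collagen Col2a1 at 0 and 0.145 CPM. The part of such cells in the levels of Comp and Thbs4 was not tested.

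Small proteoglycans and several non-fibrillar collagens stood higher in members. Of 10 leucine-rich proteoglycans, which bind collagen fibrils and set their width, 7 were higher and 0 lower, with medians of 0.89 in the aged and 0.80 in the young library. Podn, Fmod and Omd reached 2.42 to 9.60 times, and Bgn, biglycan, had 2400.4 and 2919 CPM in aged and young members, against 1325 and 1707 CPM in aged and young other cells. Dcn and Lum, above other cells in both libraries, were past 1.5-fold only in the aged one.

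Of 17 collagens outside the fibrillar class, 6 were higher and 2 lower. Col4a1 and Col4a2, the chains of the basement membrane network, had 704 and 435 CPM (Col4a1) and 369.96 and 272 CPM (Col4a2) in aged and young members, against 109 and 142 CPM and 55.7 and 83.5 CPM in aged and young other cells. Col15a1, also of basement membrane zones, was 4.48 and 3.97 times higher in the aged and young library and Col8a1 3.57 and 3.90 times. The lower ones were Col12a1, at 0.474 and 0.645 times, and Col7a1, the anchoring fibril collagen, at 0.295 and 0.411 times. The gate genes Col1a1, Col1a2 and Col3a1 were slightly lower in members of both libraries, at 0.813 to 0.946 times. Pericytes also make these basement membrane chains. The 5 pericyte markers summed to 30.7 and 44.0 CPM in aged and young members, against 14.0 and 20.8 CPM in aged and young other cells. The list was split. Of the 4 with enough UMIs to count, Abcc9 and Cspg4 were higher in both libraries and Rgs5 was lower. Rgs5 had 0.598 and 0.724 CPM in aged and young members, against 4.39 and 5.09 CPM in aged and young other cells. The part of pericytes in the collagen values was not tested.

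Complement genes were higher as a list. Outside C7, 8 of 14 counted genes were higher and 0 lower, with medians of 0.97 in the aged and 0.72 in the young library. C3, the central component, had 2379 and 1993 CPM in aged and young members, against 785 and 926 CPM in aged and young other cells. C6, which binds just before C7 in the membrane attack complex, had 7.08 and 13.8 CPM in aged and young members, against 0.682 and 2.17 CPM in aged and young other cells. C4b, C1s1 and C2, of the classical pathway, were 1.77 to 2.53 times higher. Clu, clusterin, which restrains the attack complex, differed by library, at 3.08 times in the aged and 0.682 times in the young library.

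Of 19 chemokines and cytokines outside Cxcl14, 5 were higher and 2 lower. Cxcl12, which holds and draws CXCR4-bearing leukocytes, had 524 and 753 CPM in aged and young members, against 161 and 335 CPM in aged and young other cells. Csf1, the macrophage growth factor, had 814 and 766 CPM in aged and young members, against 291 and 294 CPM in aged and young other cells. Ccl19 was 8.77 and 4.24 times higher in the aged and young library. Il11, a cytokine of fibrogenic fibroblasts, went the other way, with 43.3 and 30.6 CPM in aged and young members, against 216 and 212 CPM in aged and young other cells, and Tslp was lower too, at 0.636 and 0.254 times.

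Of the 10 genes of the IGF axis, 4 were higher and 0 lower: Igf1 and the binding proteins Igfbp3, Igfbp4 and Igfbp7, at 1.84 to 4.31 times. Of 18 modulators of Wnt and BMP signalling, Sfrp1, Sfrp4, Gdf10 and Chrdl1 were higher and Sfrp2 and Grem1 lower. Among 12 genes of lipid handling outside Apod, 4 were higher and 2 lower. Apoe, the other apolipoprotein of the list, had 188 and 514 CPM in aged and young members, against 37.4 and 141 CPM in aged and young other cells, and Lpl, lipoprotein lipase, was 4.27 and 2.11 times higher. Adventitial genes, including Pi16 and Dpp4 that mark fibroblasts around vessels, were near the other cells, with 2 of 12 higher and medians of 0.24 and 0.08 in the aged and young library.

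Genes of glycolysis, division and contraction were lower in members. Of 17 genes of hypoxia and glycolysis, 10 were lower and 0 higher, with medians of -1.09 in the aged and -0.70 in the young library. Eno1, enolase, had 57.3 and 47.4 CPM in aged and young members, against 209.8 and 134 CPM in aged and young other cells, and Pgk1 had 83.0 and 70.2 CPM, against 239 and 161 CPM. Hk2, a hexokinase, and Adm, adrenomedullin, were higher without reaching 1.5-fold in both libraries. Hk2 had 1018 and 967 CPM in aged and young members, against 595 and 742 CPM in aged and young other cells.

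Of 24 proliferation genes, 13 were lower and 0 higher, with medians of -0.88 and -0.76. Top2a, of dividing cells, had 38.9 and 15.9 CPM in aged and young members, against 87.6 and 57.6 CPM in aged and young other cells. Of 10 contractile genes 4 were lower and 0 higher, and Acta2, smooth muscle actin, had 25.4 and 34.2 CPM in aged and young members, against 176 and 105 CPM in aged and young other cells. The 5 myofibroblast markers, Lrrc15 foremost, summed to 109 and 223 CPM in aged and young members, against 469 and 360 CPM in aged and young other cells. Of the 4 with enough UMIs to count, 1 was lower in both libraries. In the young library Tagln and Lrrc15 were within 1.5-fold, at 0.800 and 0.734 times the level of other cells. Of 6 counted genes of follicle mesenchyme 3 were lower, among them Crabp1, a retinoic acid binding protein, at 1.60 and 15.3 CPM in aged and young members, against 67.7 and 149.9 CPM in aged and young other cells. Igfbp2, a marker of the same cells, was lower in aged members, at 0.199 against 2.95 CPM, but higher in young ones, at 119.7 against 41.2 CPM.

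**Figure D2:**
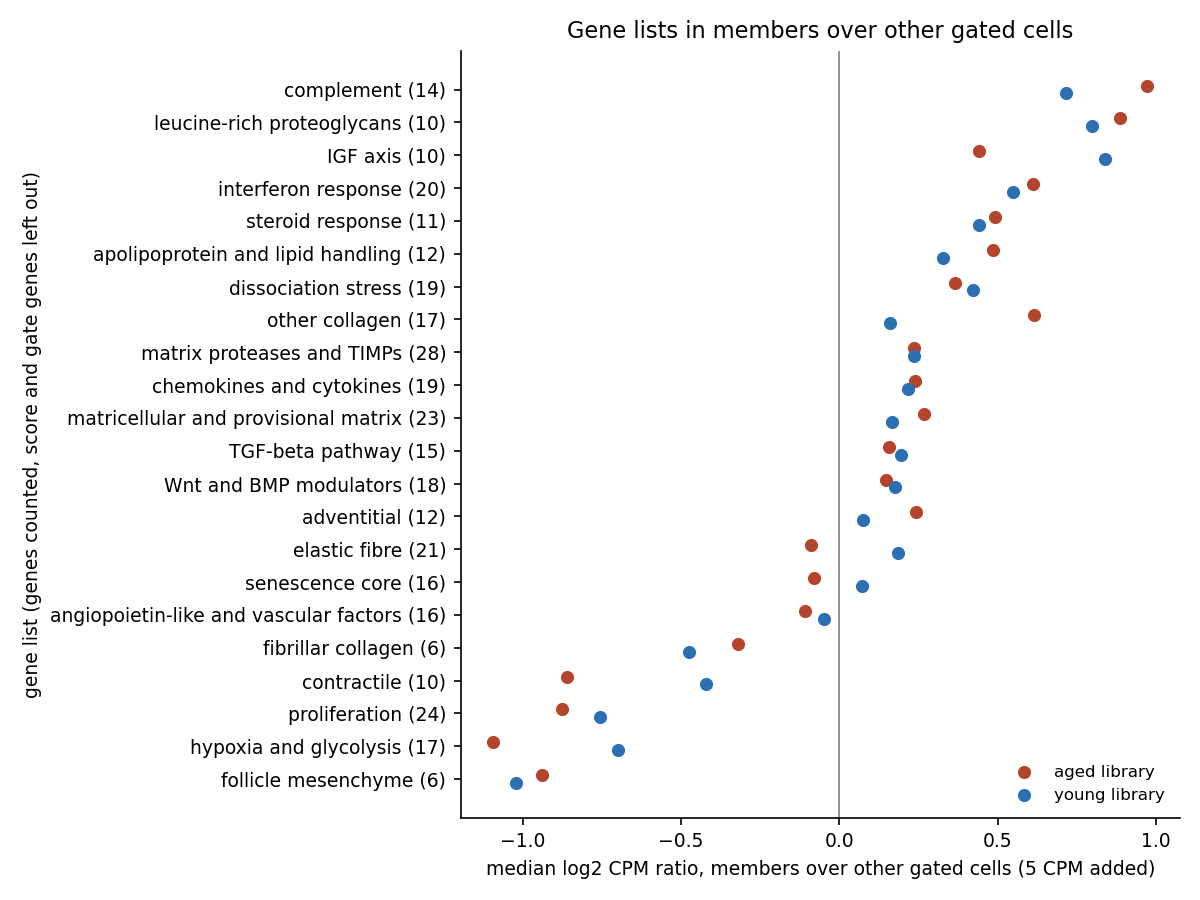
Median log2 CPM ratio of members over other gated cells (5 CPM added) for each gene list, with the number of genes counted in brackets; red points are the aged and blue points the young library, and genes used by the score or gate are left out. Complement and leucine-rich proteoglycans lie to the right in both libraries (0.97 and 0.72, 0.89 and 0.80), and hypoxia and glycolysis and proliferation to the left (-1.09 and -0.70, -0.88 and -0.76).

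The 15 genes furthest down in members included Serpinb2, Ereg, Nos2 and Tnn. Serpinb2, a plasminogen activator inhibitor, had 94.1 and 217 CPM in aged and young members, against 2584 and 2388 CPM in aged and young other cells. Ereg, epiregulin, a ligand of the EGF receptor, had 26.03 and 85.4 CPM in aged and young members, against 520.4 and 1209 CPM in aged and young other cells. Nos2, the inducible nitric oxide synthase, had 4.39 and 3.48 CPM in aged and young members, against 115 and 257 CPM in aged and young other cells. Tnn, tenascin W, had 14.5 and 35.2 CPM in aged and young members, against 184 and 253 CPM in aged and young other cells.

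Among them Dmkn, Sbsn and Krt23 are best known from epithelia. Dmkn, dermokine, had 9.18 and 4.78 CPM in aged and young members, against 249 and 204 CPM in aged and young other cells, while the 5 keratinocyte markers summed to 7.72 and 9.46 CPM in aged and young other cells, with 3 of 5 at 0 in the aged and none in the young. Krt23 had 2.19 CPM from 22 UMIs in aged and 0.145 CPM from 2 UMIs in young members, against 49.3 and 55.2 CPM in aged and young other cells. Serpinb10, Car4, Dtna, Prss35, Cadm2 and Rorb were at 0.0246 to 0.200 times the level of other cells.

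Clusters made without the 7 score genes spread the members unevenly. Of 14 clusters of gated cells, 4 held 462 members, or 81.5%, and 2 clusters, numbers 9 and 10, led by Serpinb2 and by Tnc and both with Inhba and Ereg, held 0 members of 188 and 141 cells. Cluster 1, led by C3, Gsn and Col4a1, had the highest share, with 164 members among 216 cells (75.9%, 69.7 to 81.5). Cluster 11, led by Mmp3, Apoe and C3, had 115 members among 202 cells (56.9%, 49.8 to 63.9). Cluster 7, led by Fos and Jun, had 93 among 279 cells, and cluster 5, led by Postn, Mfap4 and Aspn, 90 among 350.

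The libraries drew their members from different clusters. Cluster 1 held 108 of 226 aged and 56 of 341 young members, and cluster 11 held 12 aged and 103 young members. Clusters 5 and 7 held 18 and 23 aged and 72 and 70 young members. Cluster 11 had 16 aged and 186 young cells in all, and a cluster so much of 1 library cannot be told apart from a feature of that library.

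In single cells the 7 genes did not go together as one set. Over the 2834 gated cells, Cxcl14, C7 and Apod had Pearson correlations of 0.42 to 0.50 with each other, and Cilp, Angptl1 and Eln of 0.41 to 0.61, while pairs across these trios had 0.04 to 0.38. The ranges overlapped in the aged library alone, where Cxcl14 with Cilp had 0.43 and Apod with Eln 0.40, above Angptl1 with Eln at 0.38. In the young library they were barely apart, with Apod and Eln across the trios at 0.39 and Cxcl14 and C7 within one at 0.40. Mgp lay nearer the second trio, with 0.52 for Cilp and 0.37 for Cxcl14. Within members, correlations inside the trios were 0.23 to 0.50 and those across them -0.56 to -0.21. Choosing cells by a sum lowers the correlations of its parts in the chosen cells, so the values within members carry that choice. The trios were named after these correlations were seen, and the genes of a cell share its library and depth.

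Members were then split by which trio had the higher mean. Of aged members 137 of 226 leaned to the Cxcl14 trio (60.6%, 53.9 to 67.0), and of young members 168 of 341 (49.3%, 43.8 to 54.7). The intervals overlap slightly. No gap parts the kinds, since 24.8% of aged and 21.4% of young members lay within 0.5 of the dividing line. Median depth was 39836 and 36609 UMIs in aged and young Cxcl14-leaning members and 42414 and 39823 UMIs in aged and young Cilp-leaning ones.

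**Figure D3:**
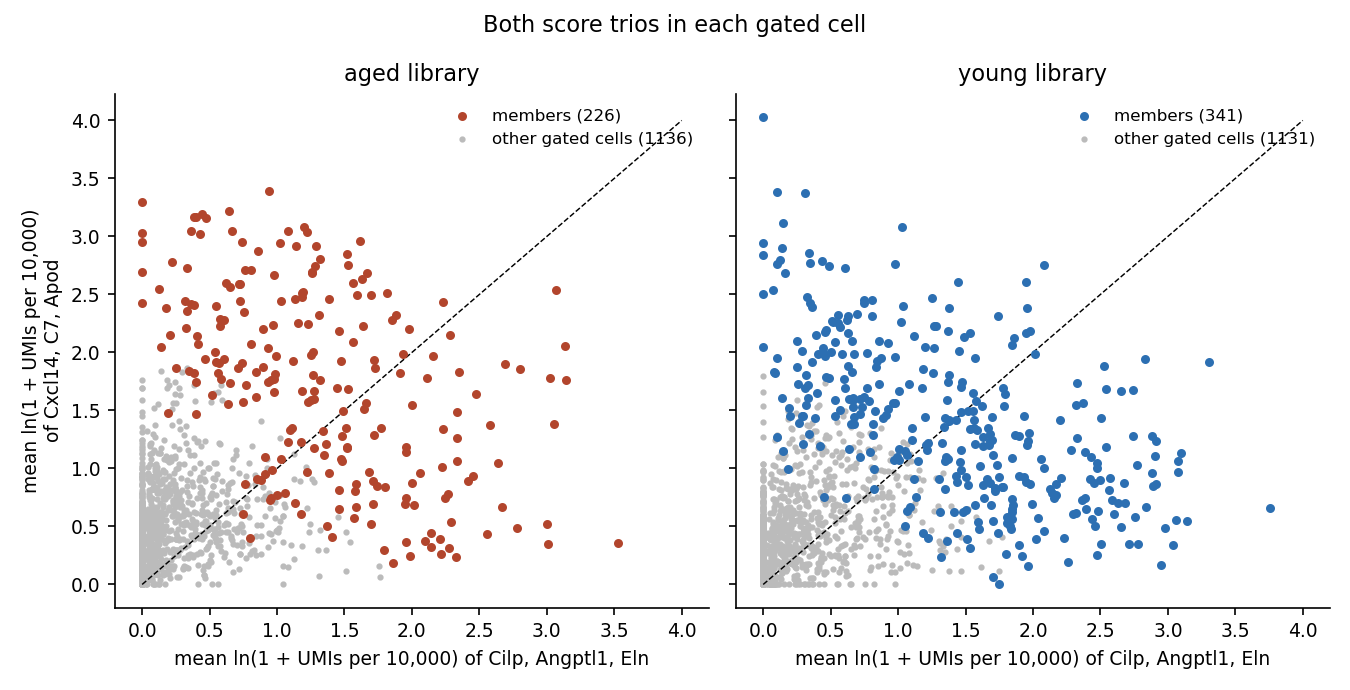
Mean ln(1 + UMIs per 10000) of Cxcl14, C7 and Apod against that of Cilp, Angptl1 and Eln in each gated cell, in the aged (226 members, red) and young library (341 members, blue), with other gated cells in grey and the line of equal values dashed. Members spread along both axes and over the middle, with few high on both.

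Cells of the 2 leanings also differed in genes outside the score. At 2-fold or more in both libraries, 79 of 9131 genes (0.865%) were higher in Cxcl14-leaning than in Cilp-leaning members and 47 (0.515%) lower. The trio genes fix this split and are among these counts. Cxcl13, a chemokine for B cells, had 1452 CPM in aged and 462 CPM in young Cxcl14-leaning members, against 1.21 and 2.87 CPM in aged and young Cilp-leaning ones and 108 and 123 CPM in aged and young other gated cells. After thinning, 23.5% of aged and 13.6% of young members had a Cxcl13 UMI (27.9% and 22.9% unthinned). The share was 10.2% of aged and 6.93% of young other gated cells, and 0 of 312 aged (up to 1.18%) and 0.286% of young myeloid barcodes.

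Other genes among the 12 foremost on the Cxcl14 side were Apoe, Cxcl12 and Saa3. Apoe had 296 and 888 CPM in aged and young Cxcl14-leaning members, against 34.5 and 181 CPM in aged and young Cilp-leaning ones. Cxcl12 had 763 and 1252 CPM in aged and young Cxcl14-leaning members, against 185 and 309.5 CPM in aged and young Cilp-leaning ones. Saa3, serum amyloid A3, had 2392 and 6220 CPM in aged and young Cxcl14-leaning members, against 281 and 1308 CPM in aged and young Cilp-leaning ones, with 5370 and 6709 CPM in aged and young other gated cells, so the Cilp side was the low one.

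Markers of other cells moved with the leaning in the young library. Neutrophil markers summed to 73.9 CPM in aged and 178 CPM in young Cxcl14-leaning members, against 69.3 and 43.3 CPM in aged and young Cilp-leaning ones. Erythroid markers summed to 2.04 and 98.6 CPM in aged and young Cxcl14-leaning members, against 0.725 and 8.34 CPM in aged and young Cilp-leaning ones, and melanocyte markers to 6.63 and 30.2 CPM, against 1.69 and 13.8 CPM. The melanocyte sum was mostly 1 gene, since Mlana gave 4.19 of 4.59 CPM in all aged and 20.1 of 21.5 CPM in all young members. Macrophage markers summed to 12.4 and 12.2 CPM in aged and young Cxcl14-leaning members, against 14.0 and 6.02 CPM in aged and young Cilp-leaning ones. In thinned myeloid barcodes an Apoe UMI was present in 90.4% of the aged and 86.6% of the young ones, a Saa3 UMI in 21.8% and 62.9%, a Csf2rb2 UMI in 34.3% and 23.7% and an Lrg1 UMI in 8.33% and 25.1%, while Cxcl12 was at 0.321% and 1.14%. The part of RNA from such cells in the levels of Apoe, Saa3, Csf2rb2 and Lrg1 was not tested.

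Csmd1, Csf2rb2, a receptor subunit for interleukin 3, Agt, angiotensinogen, Col4a4, a basement membrane chain, and Lrg1, an acute-phase glycoprotein, were 6.35 to 63.3 times higher on the Cxcl14 side in the aged and 6.50 to 34.4 times in the young library. Sntg1, Reg1 and Ifitm1 completed the 12 genes of that side. The complement list was 9 higher and 0 lower of 12 on the Cxcl14 side, where 2.08% of genes were past 1.5-fold upward and 1.82% downward, with medians of 0.95 and 0.94 in the aged and young library. C3 had 3388 and 2906 CPM in aged and young Cxcl14-leaning members, against 946 and 1182 CPM in aged and young Cilp-leaning ones. Cilp-leaning members thus had C3 near the 785 and 926 CPM of aged and young other gated cells.

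Of 23 matricellular genes, 8 were higher on the Cilp side and 3 on the Cxcl14 side, with medians of -0.36 and -0.21 in the aged and young library where all genes had -0.03 and -0.04. Postn, periostin, had 4279 and 5162 CPM in aged and young Cilp-leaning members, against 791 and 1077 CPM in aged and young Cxcl14-leaning ones and 1655 and 2016 CPM in aged and young other gated cells. Aspn, asporin, a proteoglycan that binds TGF-beta, had 2143 and 2058 CPM in aged and young Cilp-leaning members, against 583 and 361 CPM in aged and young Cxcl14-leaning ones. C1qtnf3, a secreted C1q-like protein, had 1545 and 889.6 CPM in aged and young Cilp-leaning members, against 186 and 101 CPM in aged and young Cxcl14-leaning ones. Both Postn and Aspn were lower in Cxcl14-leaning members than in the other gated cells.

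Thbs4 lay on the same side, with 1556 and 555 CPM in aged and young Cilp-leaning members, against 285 and 17.1 CPM in aged and young Cxcl14-leaning ones. Mfap4 had 893 and 1189 CPM in aged and young Cilp-leaning members, against 297 and 382 CPM in aged and young Cxcl14-leaning ones. The imprinted transcript H19 was 15.6 times higher on the Cilp side in the aged and 6.35 times in the young library, and Mest, also imprinted, 5.95 and 13.4 times. Lrrc15, a marker of myofibroblasts in wounds and tumours, had 131 and 196.5 CPM in aged and young Cilp-leaning members and 206 and 164 CPM in aged and young other gated cells, but 19.5 and 34.8 CPM in aged and young Cxcl14-leaning ones. Ccn3, Ncam1, Tnn and Areg completed the 12 genes of that side. The 5 myofibroblast markers summed to 186 and 378 CPM in aged and young Cilp-leaning members and to 54.4 and 49.8 CPM in aged and young Cxcl14-leaning ones. Other gated cells had 469 and 360 CPM in the aged and young library, so the sum in young Cilp-leaning members was not below theirs. Lrrc15 gave 196.5 CPM of that sum, against 164 CPM in young other gated cells. Acta2, of the same list, had 34.2 CPM in all young members, against 105 CPM in young other gated cells. Whether Acta2 differed between young Cilp-leaning members and other gated cells was not tested. The leanings were mixed in some of the clusters made without the score genes. In cluster 1, which held the most members, 111 leaned to Cxcl14 and 53 to Cilp, and in cluster 7 the counts were 39 and 54. In cluster 11, with 186 of its 202 cells from the young library and led by Mmp3, Apoe and C3, 101 of the 115 members leaned to Cxcl14, and in cluster 5, led by Postn, 76 of the 90 leaned to Cilp.

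**Figure D4:**
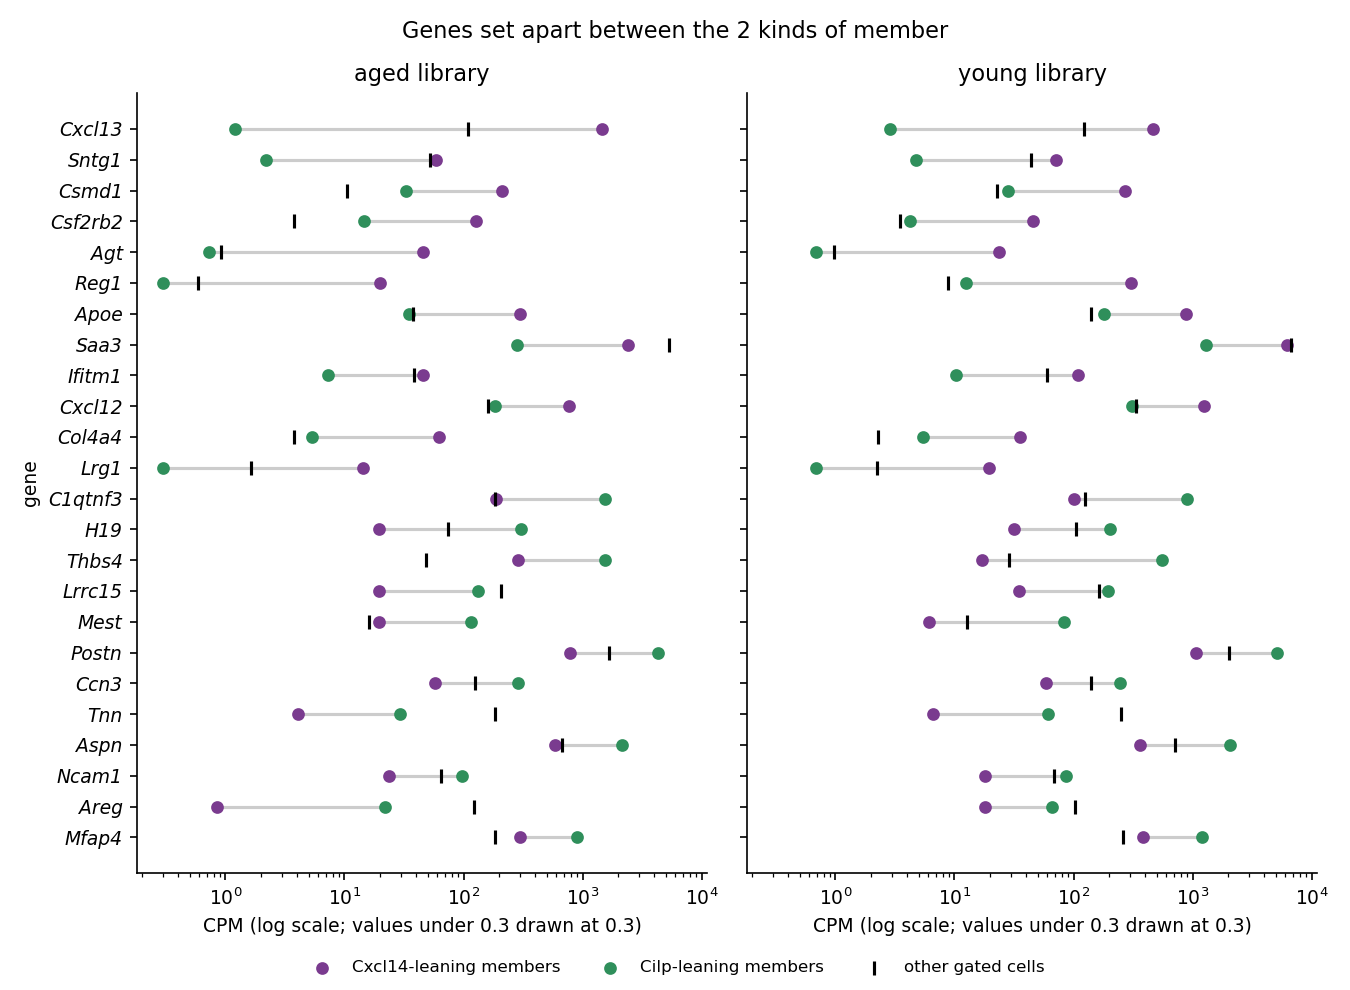
Level (CPM, log scale, values under 0.3 drawn at 0.3) of 24 genes in Cxcl14-leaning (purple) and Cilp-leaning members (green) and in other gated cells (black ticks), aged library left and young library right. The upper 12 genes are higher in Cxcl14-leaning and the lower 12 in Cilp-leaning members of both libraries; Cxcl13 spans the widest range, from 1452 to 1.21 CPM in the aged library.

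Members were less common in the aged library. They were 226 of 1362 gated cells (16.6%, 14.7 to 18.7) in the aged and 341 of 1472 (23.2%, 21.0 to 25.4) in the young library, a ratio of 0.716, and 5.37% and 7.32% of all kept cells. The share depends on 1 threshold for both libraries, and with the top 20% taken within each library it is equal by construction. Collagens took a median of 4.34% of UMIs in aged and 4.88% in young members, and mitochondrial genes 0.977% and 1.17%.

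Within members the 7 genes differed in direction between the ages. Cxcl14 was 1.60 times as high in aged as in young members (1.55 to 1.64), Apod 1.34 times (1.31 to 1.36) and C7 1.19 times (1.11 to 1.28). Eln was lower, at 0.570 times (0.552 to 0.588), and Mgp slightly so, at 0.868 times, while Cilp at 1.06 and Angptl1 at 0.957 were nearly level. These are values that the rule used, and they are given as a description. Other gated cells had ratios of 1.09 for Cxcl14 and 0.843 for Eln.

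Over 11358 genes, 361 (3.18%) were at least 1.5 times higher in aged members and 277 (2.44%) lower, and in other gated cells 1.59% and 1.57% of 15159 genes. The shares in members and in other cells cannot be compared directly, since they rest on 11358 and 15159 genes. Members are also fewer, so their levels carry more counting error than those of the other cells. The part of either in the difference between the shares was not tested. Interferon-induced genes were foremost. Of 21 on the list, 17 were higher in aged members and 1 lower, with a median log2 ratio of 1.10 where all genes had 0.02, and in other gated cells 16 were higher and 0 lower, with a median of 0.90. Ifit1, which binds viral RNA, had 454 CPM in aged and 72.0 CPM in young members, 6.30 times as high (5.88 to 6.76), and in other gated cells its ratio was 5.22. It was 5.68 times as high within Cxcl14-leaning and 5.62 times within Cilp-leaning members.

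Cxcl9 and Cxcl10, chemokines for activated T cells, had 468 and 1139.6 CPM in aged members, against 94.9 and 424 CPM in young ones. Gbp2, Irgm1, Rsad2, Plscr1 and Plscr2, antiviral and GTPase genes, were 2.79 to 3.64 times higher. Irf1, a transcription factor of the same pathway, went the other way, with 60.1 CPM in aged and 97.6 CPM in young members. The interferon list was also above other gated cells within each library, with 7 of 20 genes higher and 0 lower and medians of 0.61 and 0.55 in the aged and young library.

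Thbd and Ecrg4, outside that list, had a wide ratio in members and a narrow one in other cells. Thbd, thrombomodulin, an anticoagulant receptor, had 252 CPM in aged and 56.5 CPM in young members, against 218 and 189 CPM in aged and young other cells. Ecrg4, a secreted peptide precursor, had 152 CPM in aged and 37.1 CPM in young members, against 35.2 and 29.2 CPM in aged and young other cells. The ratios were 4.45 and 4.11 in members and 1.15 and 1.21 in other cells, and 3.97 to 4.19 within either leaning. The difference between these ratios was not tested. Inmt, a methyltransferase, had 28.8 CPM in aged and 2.75 CPM in young members, and Thbs4 was 2.69 times as high. Tmtc2, Fam13c and Aig1, of less settled roles in skin, were 2.65 to 3.02 times as high.

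Cxcl13, chosen here after its values were seen, had 853 CPM in aged and 219 CPM in young members, against 108 and 123 CPM in aged and young other cells. Myoc, also chosen after its values were seen, had 4.25 times as much in aged as in young members.

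Of the 15 genes ranked lowest in aged members, Ctla2a, a cysteine protease inhibitor, had the lowest ratio, with 67.8 CPM in aged and 1012 CPM in young members (ratio 0.0670, 0.0620 to 0.0724) and a ratio of 0.0830 in other gated cells. Apoe had a ratio of 0.366 in members and 0.265 in other cells. Slit2, a guidance factor, had 79.2 CPM in aged and 271 CPM in young members. Masp1, a protease of the lectin pathway of complement, Cpz, a carboxypeptidase with a Wnt-binding domain, Mmp11, a stromelysin, Prr16, Irx1, Myo16 and the olfactory receptor gene Or5m3b were at 0.213 to 0.353 times the young level. Mlana, a melanocyte antigen, was at 0.209 times, with 4.19 CPM in aged and 20.1 CPM in young members, where the 5 melanocyte markers summed to 4.59 and 21.5 CPM and 2 and 1 of them were at 0.

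Stress genes of tissue dissociation were lower too. Of 19, 0 were higher and 9 lower in aged members, with a median of -0.41, and other gated cells had the same count and a median of -0.49. Fos had 501 CPM in aged and 1292 CPM in young members, and Atf3, Hspa1a and Hspa1b were at 0.304 to 0.388 times. Cluster 7, led by Fos and Jun, held 23 of 226 aged and 70 of 341 young members. Erythroid markers summed to 1.496 CPM in aged and 50.8 CPM in young members, against 2.00 and 111 CPM in aged and young other cells. The part of these in the other differences with age was not tested. Without that cluster and the one led by S100a9, 356 genes were higher and 256 lower.

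**Figure D5:**
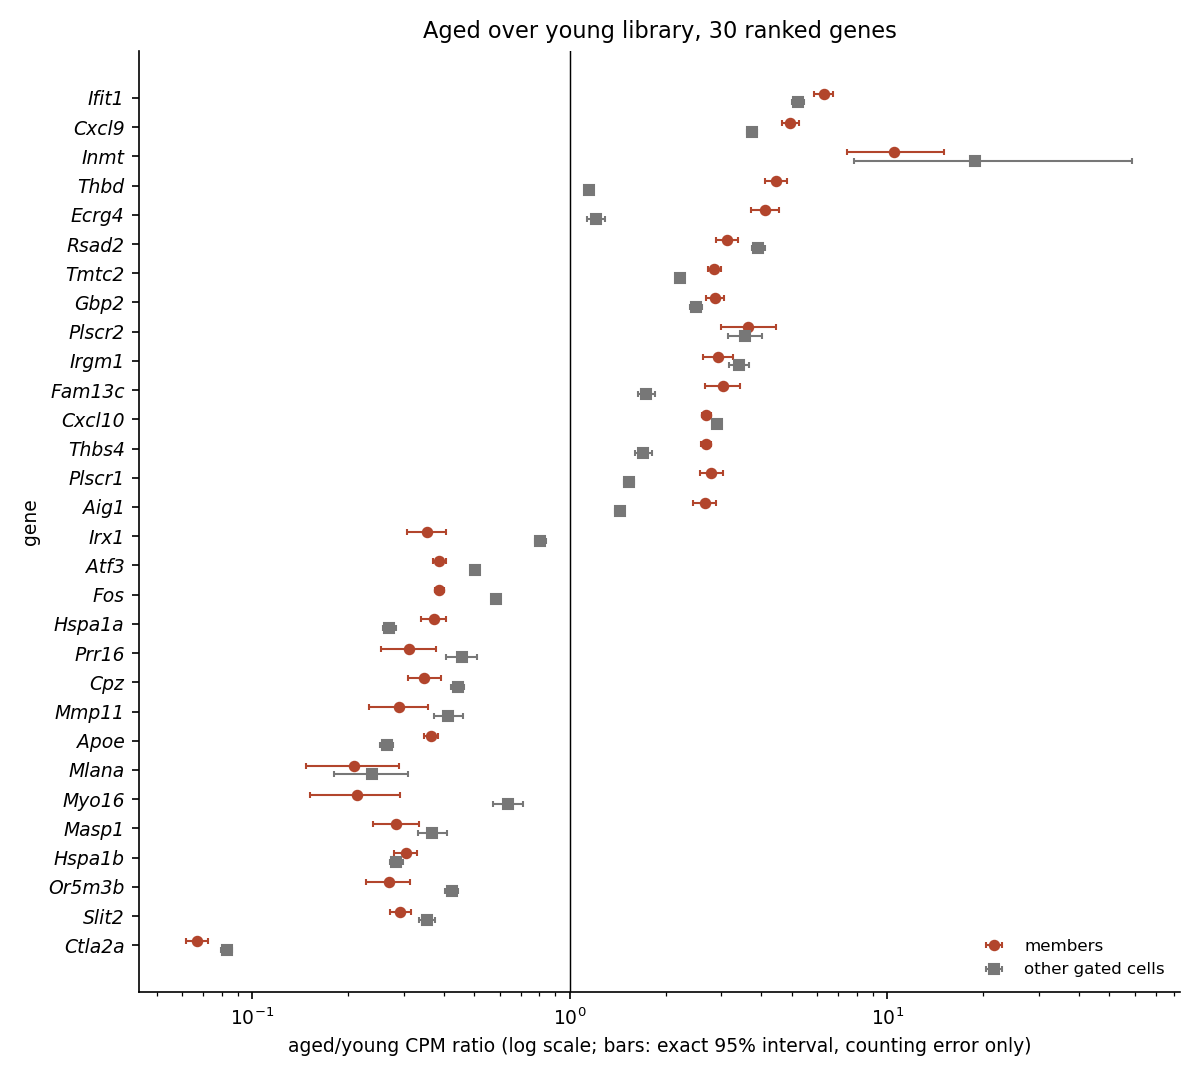
Aged over young CPM ratio (log scale) of the 30 genes ranked highest and lowest in members (red circles), beside the same ratio in other gated cells (grey squares), with exact 95% intervals for counting error. Thbd and Ecrg4 lie at 4.45 and 4.11 in members and near 1 in other cells, while Ifit1, Ctla2a and Apoe lie far from 1 in both.

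Matrix lists held genes of both directions between the ages in members, where 3.18% of all genes were higher and 2.44% lower. Of 22 elastic fibre genes, Eln included, 1 was higher and 3 lower, with a median of -0.03. Of 25 matricellular genes, Thbs4 was higher and Comp, Ccn1, Ccn5 and Spp1 were lower, at 0.451 to 0.573 times. Ltbp1 had 212 CPM in aged and 89.99 CPM in young members, and Fbn2 and Ltbp2 were lower with Eln, at 0.532 and 0.539 times. The leucine-rich proteoglycans had 1 higher and 1 lower of 10, and the non-fibrillar collagens 1 higher and 3 lower of 17, with Col4a1 at 1.62 times in members and 0.765 times in other cells. Igfbp4 was 2.06 times as high in aged members and Sfrp1, a secreted Wnt inhibitor, 1.75 times. Of 19 counted proliferation genes, 8 were higher and 0 lower in aged members, with a median of 0.52, near the 0.56 of other gated cells. Top2a was 2.45 times as high.

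The senescence core list, the subject of the series, had 0 of 16 genes higher and 3 lower in aged members, with a median of 0.01. Cdkn2a, which encodes p16 and p19Arf, had 1.90 CPM from 19 UMIs in aged and 20.1 CPM from 277 UMIs in young members, a ratio of 0.0945 (0.0560 to 0.150), against 7.09 and 16.5 CPM in aged and young other cells. Cdkn2b and Cdkn2c, its relatives among inhibitors of the cyclin D kinases, were at 0.400 and 0.517 times. Cdkn1a, encoding p21, was nearly level, with 262 CPM in aged and 240.2 CPM in young members, against 330.3 and 409 CPM in aged and young other cells.

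The follicle mesenchyme list, like Cdkn2a, was lower in aged than in young members. Its 5 markers summed to 1.30 CPM in aged and 147 CPM in young members, against 12.7 and 116 CPM in aged and young other cells. Igfbp2 made up most of the sum in young members. Coch, Wif1 and Grem1 were lower in young members than in young other cells. They had 7.53, 0.941 and 18.1 CPM in young members, against 23.6, 7.07 and 43.4 CPM in young other cells. Corin was near level, at 0.362 and 0.355 CPM. In aged members 2 of 5, Coch and Wif1, were at 0. Igfbp2 had 0.199 CPM from 2 UMIs in aged and 119.7 CPM from 1653 UMIs in young members, a ratio of 0.00167 (0.000202 to 0.00603). Among young members both the list and Cdkn2a were higher on the Cilp side. The list had 271 CPM in Cilp-leaning and 6.46 CPM in Cxcl14-leaning cells, and Cdkn2a 27.9 and 11.2 CPM. The part of follicle mesenchyme cells in the Cdkn2a level was not tested.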

How the data were processed

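Total cells of skin wounds were profiled with the 10x Genomics 3' assay, 1 library of pooled mice per age. What the authors deposited is a matrix of raw UMI counts for each library, with genes in rows and barcodes in columns; its header gives Cell Ranger 8.0.1, per the file headers. In the submitters' processing notes the version is 9.0, beside STAR, Seurat 4 and the mouse build GRCm38 (mm10).

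Barcodes were kept with at least 500 UMIs, at least 200 genes and under 15% mitochondrial UMIs, gated, and scored as described above. The members, gene lists and alternatives were chosen with earlier results of these data known. UMIs were summed over the cells of a group in a library and scaled to CPM. A ratio of CPM had 5 CPM added to both sides for calls, rankings and medians. Genes were counted with at least 100 UMIs in the gated cells of each library (members over other cells) or at least 50 UMIs in members (age). Named genes were the 20 highest and 15 lowest in members over other cells, by the smaller of both libraries' ratios, the 15 highest and 15 lowest with age in members whose interval lay beyond 1.5-fold and of which 10 cells held at most 50% of the UMIs in the library with the higher level, and the 12 foremost of each leaning, a split made after the data were seen. From each gene list, members past the fold or at its ends are named, and Fbn1, Lox, Dcn, Lum, Fos and Cdkn1a for their role.

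Intervals are exact (Poisson, Clopper-Pearson or conditional binomial). They cover counting error only, and no test between the ages was possible. Gated cells were clustered without the score genes (2000 variable genes, 20 components, 15 neighbours, Leiden resolution 1). Scrublet called 2 aged and 3 young doublets, too few to be trusted, so dropping the top 4% of its scores was an alternative. The calling step was tested on simulated Poisson counts of summed UMIs. Such counts hold no spread between cells or libraries, so that test bears on counting error alone. Of 33696 features, 1735 were absent from the GENCODE release M21 annotation at hand and are used by the names in the files. Tools were Python 3.11.15, numpy 2.4.6, scipy 1.17.1, pandas 2.3.3, scanpy 1.11.5 and matplotlib 3.10.9, with R 4.3.3 and edgeR 4.0.16 for scaling factors.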

Additional observations from a re-analysis of the deposited data

Results flagged for a closer look

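Of the listed genes, 3 lay on opposite sides of 1 for the aged over young ratio in members and in other gated cells, each by more than 1.5-fold. The difference between the ratios was not tested, since each is 1 library against 1.

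Spp1, osteopontin, had 33.7 CPM in aged and 68.4 CPM in young members (ratio 0.493), against 578 and 167 CPM in aged and young other cells (ratio 3.46). In members 10 cells held 91.1% of its aged and 82.4% of its young UMIs. Col11a1, a fibrillar collagen of cartilage, had 17.0 CPM in aged and 8.33 CPM in young members (ratio 2.04), against 2.49 and 14.3 CPM in aged and young other cells (ratio 0.174), with 94.7% and 83.5% of aged and young member UMIs in 10 cells. Clu, clusterin, was spread more widely, with 119 CPM in aged and 58.2 CPM in young members (ratio 2.05), against 38.7 and 85.3 CPM in aged and young other cells (ratio 0.454), and 10 cells held 48.2% and 43.8% of its aged and young member UMIs.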

How the results depend on the processing

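No paired analysis was possible because there was 1 library per age, and no replicate could be left out. The ratio of aged to young member shares, 0.716, became 0.99989 with the top 20% taken within each library, by construction. With 1 CPM added in place of 5, the counts in members over other cells were 199 higher and 262 lower, against 122 and 108 as reported, and with age in members 688 and 563, against 361 and 277. With 20 CPM added they were 64, 34, 155 and 95. Both follow from how many low genes pass. Cilp-leaning members alone, an alternative chosen after seeing the data, gave 386 genes higher and 445 lower with age, and the cause was not tested. In members over other cells the share of higher calls, 53.0% as reported, was 41.3% for the top 10% of cells, 43.2% with 1 CPM added and 65.3% with 20 CPM added. With age in members it was 56.6% as reported and 50.5% with edgeR's TMM factors (322 and 315 genes), 46.5% in Cilp-leaning and 61.9% in Cxcl14-leaning members alone. No list median past 1.5-fold changed direction in its 144 aged, 108 young and 36 age alternatives, and 130, 101 and 34 of these stayed past 1.5-fold. The genes ranked with age, taken with the score genes Cxcl14 and Eln, kept their direction in all 576 of theirs and stayed past 1.5-fold in 570. Size was less steady than direction. Over the 37 ranked and score genes, 324 alternatives of the age ratio fell outside the reported value's interval for counting error and 342 inside. For all list medians, 106 aged, 109 young and 72 age alternatives fell outside, and 290, 287 and 324 inside. Genes with few UMIs in members, such as Cdkn2a in the aged library, are limited by depth.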

Other observations

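Several clusters were poor in members. Cluster 2, led by Prg4 and Pi16, held 1 member of 255 cells, although C3 was among its leading genes, as it was in clusters 1 and 11. Cluster 0, led by the interferon-induced genes Cxcl10 and Ifit1, held 4 members of 183 cells, of which 170 were aged and 13 young. Cluster 3, led by Ccl2 and Il1rl1, held 43 aged and 5 young members among 235 aged and 23 young cells. Barcodes that failed a filter but passed the gate numbered 6 in the aged and 15 in the young library, and 0 of them reached the score threshold.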
